A study of Mus musculus with 6 samples.

Results

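Of the 22046 protein-coding genes in the table, 41 were at or above 1 FPKM in all 3 libraries of islets whose beta cells lack YTHDC1 and below 1 FPKM in all 3 control libraries. FPKM are fragments per kilobase of gene length, scaled by 1 factor per library, so levels of different genes can be compared per length. The rule also asked that the lowest knockout library reach at least 2 times the highest control library, and it left out 9 named genes, 7 of which met the thresholds. These 41 genes are the members described here. Grouped by what each gene is best known for, a grouping made with their values known, they include 12 genes known from neurons, such as the filament gene Prph and the choline transporter gene Slc5a7, and 10 enzyme genes, such as the transglutaminase gene Tgm7, which had 592 reads in the knockout and 1 in the control libraries. Their FPKM in both groups chose them, so their difference between the groups is a description and was not tested.

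The libraries came from pancreatic islets, the hormone-secreting cell clusters of the pancreas, of mice aged 7 weeks. The 3 knockout libraries (bKO) carry the genotype label Ythdc1-betaKO, a deletion of Ythdc1 in beta cells, the insulin-producing cells. The 3 control libraries (flox) carry the genotype label Ythdc1flox/flox, that is, Ythdc1 alleles flanked by recombination sites with no deletion named. The sources used here do not give the recombinase line that drives the deletion. The groups are labelled as independent biological replicates, and whether a library pools islets of several mice was not given. Free-text descriptions of bKO 2 and bKO 3 name Ythdc2 and Ythdc3, while the genotype label of both is Ythdc1-betaKO. Ythdc1 itself was at 3.81, 3.79 and 3.87 FPKM in bKO, against 5.76, 6.46 and 6.18 FPKM in flox, and it fell in bKO (limma log2 fold change -0.56, SE 0.058, limma adjusted p = 0.00139 on the log2(FPKM + 1) scale). The islets hold other cell types too, and the value covers all exons. The 12 beta-cell markers of a marker list summed to 132250 to 141510 FPKM in bKO and 203040 to 224900 FPKM in flox, and the 14 markers of alpha, delta, PP and epsilon cells to 36175 to 36551 FPKM in bKO and 29100 to 32328 FPKM in flox. Library totals ran from 16863329 to 18240339 reads.

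YTHDC1 is a nuclear protein that binds N6-methyladenosine, a methyl mark on RNA, and takes part in splicing, export and decay of marked transcripts. In mouse embryonic stem cells it is also known for keeping retrotransposons and genes of the early embryo silent through chromatin. Islets also hold endothelial, immune and mesenchymal cells and nerve fibres, and ganglia of autonomic neurons lie within the pancreas. In bulk RNA, more cells of a type and more RNA per cell cannot be told apart.

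The members were a set of low transcripts in both groups. Their group mean ran from 1.08 to 6.46 FPKM in bKO (median 1.71) and from 0 to 0.904 FPKM in flox (median 0.321). Only 2 of the 41, Sncg and Ccdc152, averaged at least 5 FPKM in bKO, and 24 averaged less than 2 FPKM. The word "on" fits 1 member in the strict sense. Slc5a7 had 0 reads in all 3 flox libraries, 3 members had 3 reads or fewer over the flox group, and 36 had at least 1 read in every flox library. Over a group of 3 libraries the members held 83 to 1407 reads in bKO (median 376) and 0 to 347 reads in flox (median 58). The members' ratio of bKO to flox, from reads per size factor and with 3 reads over the flox group as a floor, had a median of 5.75, and it reached 10 for 11 of the 41. Together they took 0.0345%, 0.0362% and 0.0355% of the reads in bKO, against 0.00577%, 0.00601% and 0.00646% in flox.

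**Figure D1:**
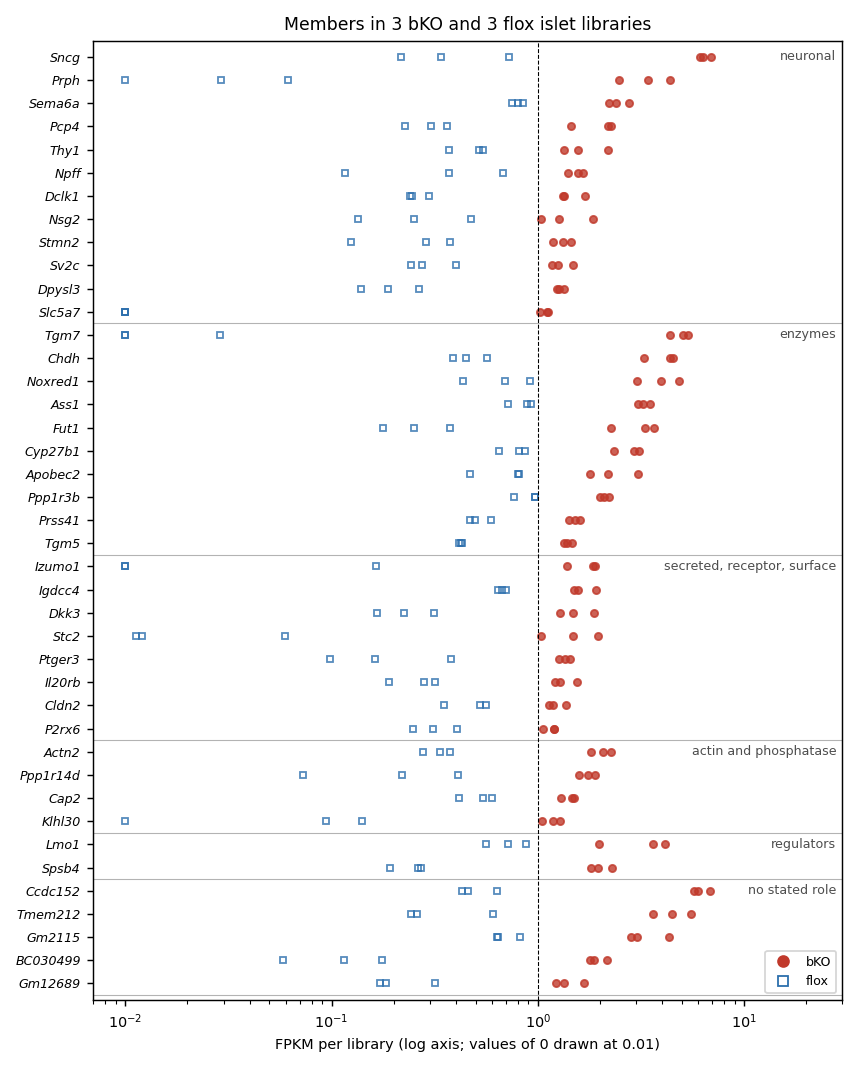
FPKM of each of the 41 members (rows, grouped by role) on a log axis, with 3 bKO libraries as filled circles and 3 flox libraries as open squares; values of 0 are drawn at 0.01 and the dashed line marks 1 FPKM. By the rule, all circles lie right of the line and all squares left of it, and Slc5a7, Tgm7, Prph and Stc2 have the widest gaps between their lowest bKO and highest flox library.

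By leaving out genes low in any bKO library, the rule limits the members' spread over the 3 bKO libraries. The coefficient of variation of a member over them ran from 3.99% for Dpysl3 to 34.8% for Lmo1, with a median of 12.2%. Of the 41 members, 7 were highest in bKO 1, 20 in bKO 2 and 14 in bKO 3, so no library held all the high values. The thresholds pass through a continuum. Just inside the limit of 1 FPKM for flox were Ppp1r3b, Ass1 and Noxred1, with a highest flox library of 0.973, 0.926 and 0.917 FPKM. Just outside it were Camk1d, C1qtnf1 and Rdh16f2 at 1.003, 1.05 and 1.101 FPKM. Just inside the limit of 1 FPKM for bKO were Slc5a7, Stc2 and Nsg2, with a lowest bKO library of 1.03, 1.03 and 1.04 FPKM, and just outside it were Trim66, Col8a2 and Cplx1 at 0.993, 0.988 and 0.958 FPKM. Just inside the limit of 2 for the ratio of the lowest bKO to the highest flox library were Cldn2, Ppp1r3b and Npff at 2.01, 2.05 and 2.06. Ier5l, Cntnap5b and Rasal3 were just outside it, at 1.95, 1.94 and 1.92.

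**Figure D2:**
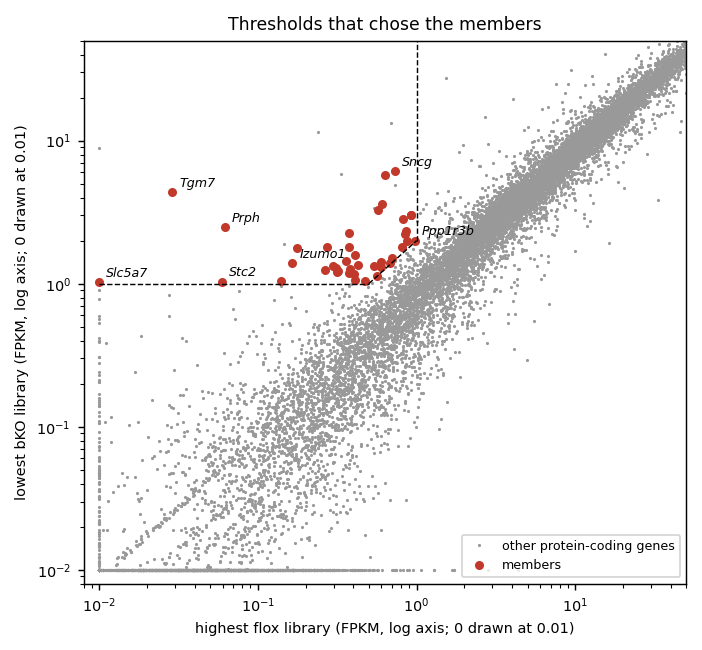
Highest flox library (horizontal) against lowest bKO library (vertical) for every protein-coding gene with reads, in FPKM on log axes, with values of 0 drawn at 0.01 and the most abundant genes beyond the axes. Dashed lines mark the thresholds, red points are the 41 members, and the 7 grey points beyond the lines are the genes the rule left out; grey points continue on the other side of every line.

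Known roles in neurons put 12 members in 1 group. This grouping followed no list, and the share of such genes among all genes was not counted. On the synapse and neuronal list used further below only Stmn2 and Prph appear, and Thy1 is on the mesenchymal list. The 12 included genes of the neuronal cytoskeleton, of transmitter handling and of axon growth. Prph encodes peripherin, an intermediate filament of peripheral neurons. It had 3.41, 4.36 and 2.49 FPKM in bKO, against 0, 0.02903 and 0.0617 FPKM in flox. These values stand on 381 reads in bKO and 3 in flox, a 113-fold ratio of reads per size factor (exact binomial 95% limits for counting error, 38.3 and 549). All flox libraries were at or near 0, and bKO 3 was the lowest of the knockout libraries. Slc5a7 encodes the high-affinity choline transporter, which cholinergic neurons use to take choline back up for acetylcholine synthesis. It had 1.12, 1.03 and 1.11 FPKM in bKO, from 121, 105 and 116 reads, against 0 reads in every flox library. Against a floor of 3 reads over the flox group this is at least 101-fold higher in bKO. The exact binomial 95% limit for counting error, as used for Prph, is lower, at 81.8-fold. The bKO libraries agreed within a coefficient of variation of 4.67%.

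The promoter windows of Prph and Slc5a7 are shown because these 2 neuronal genes had the lowest flox reads of their group. Each runs from 250 bases before to 50 after the RefSeq transcript start, 5′ to 3′ on the gene's strand, with the TATA box letters TATAAA in capitals.
Prph (chr15:99054924-99055223, plus strand, GRCm38.p6, RefSeq): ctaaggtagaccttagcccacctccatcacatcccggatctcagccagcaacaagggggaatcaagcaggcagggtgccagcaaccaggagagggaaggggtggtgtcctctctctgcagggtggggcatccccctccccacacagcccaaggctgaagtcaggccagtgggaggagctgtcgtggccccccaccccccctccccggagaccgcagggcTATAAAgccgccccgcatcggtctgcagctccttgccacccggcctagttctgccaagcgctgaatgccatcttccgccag
Slc5a7 (chr17:54298985-54299284, minus strand, GRCm38.p6, RefSeq): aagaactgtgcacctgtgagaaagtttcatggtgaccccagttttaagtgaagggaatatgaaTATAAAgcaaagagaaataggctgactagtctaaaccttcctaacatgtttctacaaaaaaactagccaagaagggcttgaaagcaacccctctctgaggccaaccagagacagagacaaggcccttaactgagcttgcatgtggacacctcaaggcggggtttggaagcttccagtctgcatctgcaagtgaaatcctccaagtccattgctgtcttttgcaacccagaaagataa
The Prph match began at position -31 and the Slc5a7 match at position -187, counted from the first transcribed base.

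Sncg, gamma-synuclein, a small protein of peripheral neuron endings, was the most abundant member. It had 6.11, 6.35 and 6.92 FPKM in bKO, against 0.729, 0.341 and 0.217 FPKM in flox, a 15.1-fold ratio of means. Its flox libraries differed by more than 3-fold among themselves, on 10, 5 and 3 reads. Stmn2, stathmin 2, which regulates microtubules in growing axons, had 1.18, 1.45 and 1.32 FPKM in bKO and 0.377, 0.124 and 0.286 FPKM in flox. Pcp4, a calmodulin-binding peptide of Purkinje cells and other neurons, had 2.18, 1.45 and 2.27 FPKM in bKO and 0.303, 0.226 and 0.361 FPKM in flox. Sema6a, a membrane-bound axon guidance protein, had the smallest ratio of the 12 and stood at 2.38, 2.21 and 2.76 FPKM in bKO, against 0.799, 0.754 and 0.844 FPKM in flox. Thy1, a surface glycoprotein of neurons, T cells and fibroblasts, had 1.34, 2.19 and 1.57 FPKM in bKO and 0.518, 0.543 and 0.371 FPKM in flox. The remaining neuronal members were Dclk1 (a microtubule-binding kinase), Sv2c (a synaptic vesicle glycoprotein), Dpysl3 (an axon growth protein), Nsg2 (an endosomal protein of neurons) and Npff (the neuropeptide FF precursor). Their bKO means ran from 1.28 for Dpysl3 to 1.54 for Npff. Of the 12, Nsg2 varied most within bKO, at 1.04, 1.86 and 1.26 FPKM, against 0.134, 0.251 and 0.475 FPKM in flox. That its groups do not overlap is required by the rule.

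Because Prph is known from peripheral neurons and Slc5a7 from cholinergic neurons, 15 further genes of autonomic ganglion neurons were looked up. They were chosen after member values had been seen and are given without a test. Of these 15 genes, 10 were higher in every bKO library than in every flox library. Of 13 with a flox maximum below 1 FPKM, 9 did so, beside 17.9% of all 5840 protein-coding genes with reads and a flox maximum below 1 FPKM. That background takes in genes with any read at all and was not matched to the 13 by level. Slc18a3, the vesicular acetylcholine transporter, had 0.949, 1.14 and 0.897 FPKM in bKO (44, 50 and 40 reads), against 0 reads in every flox library. Phox2a, a transcription factor of autonomic neurons, had 0.563, 0.705 and 0.611 FPKM in bKO and 0 reads in every flox library. The groups did not overlap for either gene.

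Chrna3, a subunit of the ganglionic acetylcholine receptor, had 0.386, 0.545 and 0.555 FPKM in bKO and 0, 0.01102 and 0 FPKM in flox. Nefl, the light neurofilament protein, had 0.308, 0.539 and 0.7201 FPKM in bKO and 0 reads in flox. Nos1, the neuronal nitric oxide synthase, had 0.579, 0.752 and 0.563 FPKM in bKO, against 0.0724, 0.0208 and 0.0443 FPKM in flox. Tac1, the substance P precursor, held 123 reads in bKO and 1 in flox, while the transcription factor Hand2 was present in both groups, with 131 reads in bKO and 42 in flox. Chat, the enzyme that makes acetylcholine, was detected with 9, 9 and 6 reads in bKO and 0 in flox. The summed level of the 13 low genes ran from 5.21 to 6.67 FPKM in bKO and from 0.638 to 1.33 FPKM in flox. Not all genes of the list followed. Dbh, which makes noradrenaline, was at 0 reads in all 6 libraries, Gata3 had 1 read over all 6, and Gal overlapped between the groups. Th, which beta cells also express, was at 19.95, 21.1 and 18.9 FPKM in bKO and 19.9, 20.6 and 20.2 FPKM in flox. Vip and Npy, neuropeptides of pancreatic ganglia, were among the genes the rule left out. Vip had 12.4, 14.7 and 8.86 FPKM in bKO, against 0 reads in every flox library. Npy had 7.36, 11.5 and 8.12 FPKM in bKO, against 2.19, 0.615 and 0.327 FPKM in flox. The part of ganglion neurons in the neuronal members was not tested, and more neurons in the samples and more RNA of these genes in islet cells cannot be told apart here.

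**Figure D3:**
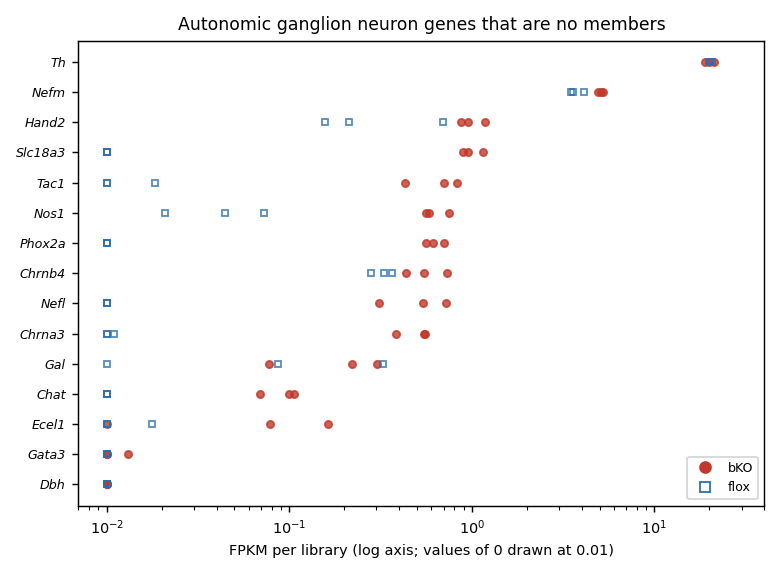
FPKM of 15 genes of autonomic ganglion neurons that are no members, on a log axis, with bKO libraries as filled circles and flox libraries as open squares; values of 0 are drawn at 0.01. For 10 genes all circles lie right of all squares, while Th, Gal, Ecel1, Gata3 and Dbh overlap or are at 0.

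Glia and support cells of nerves were measured by a list of 11 Schwann cell markers. Of 9 tested, 2 rose and 0 fell, and their median was 0.37 on the log2(FPKM + 1) scale, beside 8.96% of all 15717 tested genes higher in bKO, 11.4% lower and a median of -0.01. Of the 12461 protein-coding genes among them 22.1% changed in either direction. Here and below, ± gives the SD over the 3 libraries of a group. Foxd3 averaged 0.999 ± 0.225 FPKM in bKO and 0.3602 ± 0.163 FPKM in flox (limma log2 fold change 0.56, SE 0.14, limma adjusted p = 0.0362), and Cdh19 averaged 0.758 ± 0.0354 FPKM in bKO and 0.302 ± 0.118 FPKM in flox (limma log2 fold change 0.44, SE 0.11, limma adjusted p = 0.0387). Both calls were lost when either bKO 2, bKO 3, flox 1 or flox 2 was left out, Foxd3 also without flox 3 and Cdh19 also without bKO 1. Both were lost with a pseudocount of 0.1 too (limma adjusted p = 0.052 for Foxd3 and 0.055 for Cdh19), and Foxd3 with no filter (limma adjusted p = 0.0679). An unadjusted limma p under 0.05 was found for 6 of the 9, and the share of all tested genes under it was not counted. A voom fit to the recovered reads called 5 of the 9 in either direction. Over all 15717 tested genes it called 1964 higher and 2394 lower. The summed level of the list was 22.9 to 25.2 FPKM in bKO and 16.6 to 21.3 FPKM in flox.

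Of 26 further genes of the synapse and neuronal list, whose other entries Stmn2 and Prph are members, 19 were tested. Among these 5 rose and 3 fell, beside 8.96% higher and 11.4% lower over all tested genes, and the median log2 change was 0.05. Vgf, a neuropeptide precursor of neurons and endocrine cells, rose to 18.9 ± 2.07 FPKM in bKO, against 7.103 ± 1.05 FPKM in flox (limma log2 fold change 1.30, SE 0.11, limma adjusted p = 0.000681). Tubb3, a neuronal tubulin, averaged 18.4 ± 0.952 FPKM in bKO and 11.8 ± 0.577 FPKM in flox, and Gria2, a glutamate receptor subunit, averaged 8.12 ± 0.258 FPKM in bKO and 4.23 ± 0.603 FPKM in flox. Both rose (limma adjusted p = 0.000914 and 0.00181). Grin1, another glutamate receptor subunit, fell to 1.67 ± 0.0586 FPKM in bKO, against 3.72 ± 0.335 FPKM in flox (limma log2 fold change -0.82, SE 0.077, limma adjusted p = 0.00097). Called genes of the list thus lay in both directions, while the direction of the 12 neuronal members was set by the rule.

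The second group held 10 genes of metabolic and other enzymes. Tgm7, a transglutaminase, which cross-links proteins, had 5.08, 4.36 and 5.33 FPKM in bKO, against 0.0289, 0 and 0 FPKM in flox. With 592 reads in bKO and 1 in flox, the ratio of reads per size factor was 525 (exact binomial 95% limits for counting error, 93.9 and 20786). Flox 2 and flox 3 held none of its reads. With the floor of 3 flox reads Tgm7 stood at 175 and Slc5a7 at 101, and the lower counting limits of both, 93.9 and 81.8, do not rank them. Its neighbour Tgm5, a transglutaminase best known from skin, lies 7724 bases away on the same strand of chromosome 2. Tgm5 had 1.47, 1.35 and 1.39 FPKM in bKO and 0.413, 0.423 and 0.4303 FPKM in flox, a 3.32-fold ratio of means, and was nearly constant within each group. Of the other transglutaminase genes only Tgm2 passed the filter on low values. Tgm2 averaged 2.43 ± 0.0874 FPKM in bKO and 1.37 ± 0.341 FPKM in flox (limma log2 fold change 0.54, SE 0.11, limma adjusted p = 0.0188), a call that was lost with no filter on low values and without bKO 1, bKO 2, bKO 3 or flox 1. Tgm1, Tgm3, Tgm4 and Tgm6 averaged at most 0.277 FPKM in either group.

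Chdh, the mitochondrial enzyme that oxidises choline on the way to betaine, had 4.52, 4.36 and 3.27 FPKM in bKO, against 0.4495, 0.569 and 0.387 FPKM in flox. It held the most reads of any member in bKO, 1407 over the group. Of its exon bases 9.47% overlap exons of Cacna1d on the opposite strand, a calcium channel gene at 17.8 ± 0.339 FPKM in bKO and 16.97 ± 0.595 FPKM in flox. Ass1, argininosuccinate synthase, which makes the precursor of arginine, had 3.24, 3.497 and 3.05 FPKM in bKO and 0.926, 0.889 and 0.716 FPKM in flox. Cyp27b1, the hydroxylase that activates vitamin D, had 2.35, 3.09 and 2.94 FPKM in bKO and 0.651, 0.812 and 0.863 FPKM in flox. Both genes were already above 0.5 FPKM in every flox library.

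Fut1, a fucosyltransferase that makes the H blood group structure, had 3.64, 3.31 and 2.27 FPKM in bKO and 0.178, 0.25 and 0.377 FPKM in flox. Noxred1, annotated as an NADP-dependent oxidoreductase-domain protein, had 3.96, 4.84 and 3.04 FPKM in bKO and 0.6904, 0.917 and 0.433 FPKM in flox. In both genes bKO 3 was the lowest knockout library. Apobec2, a cytidine deaminase family member of muscle, had 2.18, 3.07 and 1.79 FPKM in bKO and 0.467, 0.799 and 0.812 FPKM in flox. Ppp1r3b, which directs protein phosphatase 1 to glycogen, had the smallest ratio of all members, with 2.09, 1.997 and 2.22 FPKM in bKO and 0.769, 0.971 and 0.973 FPKM in flox, a 2.33-fold ratio of means. Prss41, a serine protease, was at 1.51 ± 0.0978 FPKM in bKO and 0.518 ± 0.0664 FPKM in flox (SD, n = 3 each). Its relative Prss53 went the other way and fell to 12.9 ± 1.24 FPKM in bKO, against 41.6 ± 4.62 FPKM in flox (limma log2 fold change -1.61, SE 0.097, limma adjusted p = 0.000233).

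Among 8 secreted factors, receptors and surface proteins, Stc2 had the largest ratio. Stanniocalcin 2 is a secreted glycoprotein and a known target of ATF4, the transcription factor of the integrated stress response. Stc2 had 1.48, 1.95 and 1.03 FPKM in bKO, against 0.012, 0.0112 and 0.0596 FPKM in flox. These stand on 429 reads in bKO and 7 in flox, a 53.9-fold ratio of means, and bKO 3 again held the lowest knockout value. The paralog Stc1 was at 1.999 ± 0.367 FPKM in bKO and 1.54 ± 0.131 FPKM in flox (limma adjusted p = 0.171). Of the 26 other genes of the ATF4 and stress response list, 24 were tested, 20 rose and 0 fell, and the median log2 change was 0.54. Over all tested genes 8.96% rose and 11.4% fell. Nupr1, a stress-induced chromatin protein, averaged 52.99 ± 2.84 FPKM in bKO and 4.696 ± 0.557 FPKM in flox (limma log2 fold change 3.25, SE 0.078, limma adjusted p = 1.2e-05). Phgdh, the first enzyme of serine synthesis, averaged 23.3 ± 1.66 FPKM in bKO and 8.15 ± 0.541 FPKM in flox (limma log2 fold change 1.41, SE 0.069, limma adjusted p = 0.000145). Chac1, which degrades glutathione, and Ddit3, the transcription factor CHOP, rose by 1.86 and 1.05 on the log2 scale (limma adjusted p = 0.000152 and 0.000235). Stc2 is the only member on this list.

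Izumo1 and Fut1 form a second pair of adjacent members. Izumo1 encodes the sperm surface protein that binds the egg, and it starts 752 bases beyond the end of Fut1 on the same strand of chromosome 7. Izumo1 had 1.84, 1.899 and 1.39 FPKM in bKO, against 0, 0 and 0.165 FPKM in flox, with 0 reads in flox 1 and flox 2. On the other side of Fut1, 1799 bases away on the opposite strand, lies Fgf21, a stress-induced hormone gene and ATF4 target. Fgf21 had 0 reads in every flox library and 0.876, 0.5801 and 0.398 FPKM in bKO, too low to pass the filter for testing. Fut1 kept 8 to 17 reads in each flox library, while Izumo1 had 0, 0 and 8 and Fgf21 none. Izumo1 shares 21.9% of its exon bases with Rasip1 on the same strand, which averaged 4.12 ± 0.279 FPKM in bKO and 3.05 ± 0.0974 FPKM in flox (limma log2 fold change 0.34, SE 0.065, limma adjusted p = 0.0138). The sources do not say how reads in shared bases were counted.

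The promoter windows of Izumo1, Noxred1 and Il20rb are shown as examples. They hold the searched strings with the smallest shares over all symbols, 2.03% for the CRE and 1.08% for C/EBP-ATF. The E-box was also found in only 2 member promoters, Actn2 and Ass1, which are not shown. Capitals mark the CRE letters TGACGTCA in Izumo1 and the C/EBP-ATF letters TGATGNAAT, a composite site that ATF4 dimers are known to bind, in Noxred1 and Il20rb.
Izumo1 (chr7:45621561-45621860, plus strand, GRCm38.p6, RefSeq): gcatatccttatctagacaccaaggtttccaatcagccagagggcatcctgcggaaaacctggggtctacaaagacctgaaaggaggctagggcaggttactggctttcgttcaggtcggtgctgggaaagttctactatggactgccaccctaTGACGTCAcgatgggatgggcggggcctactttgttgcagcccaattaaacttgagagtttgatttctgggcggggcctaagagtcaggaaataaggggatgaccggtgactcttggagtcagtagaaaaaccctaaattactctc
Noxred1 (chr12:87238552-87238851, minus strand, GRCm38.p6, RefSeq): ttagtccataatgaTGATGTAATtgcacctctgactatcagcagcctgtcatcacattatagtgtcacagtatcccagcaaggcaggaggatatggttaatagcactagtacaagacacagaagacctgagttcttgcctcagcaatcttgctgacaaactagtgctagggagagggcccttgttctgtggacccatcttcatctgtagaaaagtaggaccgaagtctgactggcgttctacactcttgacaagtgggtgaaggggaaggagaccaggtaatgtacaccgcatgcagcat
Il20rb (chr9:100486424-100486723, minus strand, GRCm38.p6, RefSeq): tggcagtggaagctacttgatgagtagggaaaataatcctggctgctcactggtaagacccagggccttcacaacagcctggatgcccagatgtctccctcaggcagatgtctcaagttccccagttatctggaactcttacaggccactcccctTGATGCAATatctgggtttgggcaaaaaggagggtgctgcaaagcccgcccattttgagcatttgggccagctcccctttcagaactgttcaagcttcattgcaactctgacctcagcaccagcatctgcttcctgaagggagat
The match began at position -96 in Izumo1, -236 in Noxred1 and -95 in Il20rb.

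The other 6 members of this group averaged 1.15 to 1.66 FPKM in bKO. Ptger3, the inhibitory prostaglandin E2 receptor EP3, which is known to restrain insulin secretion in beta cells, had 1.26, 1.43 and 1.36 FPKM in bKO and 0.0983, 0.163 and 0.3798 FPKM in flox. Il20rb, a receptor chain for interleukins of the IL-20 family, had 1.21, 1.29 and 1.54 FPKM in bKO and 0.281, 0.317 and 0.191 FPKM in flox. Dkk3, a secreted protein of the Dickkopf family, averaged 1.55 ± 0.297 FPKM in bKO and 0.234 ± 0.0735 FPKM in flox (SD, n = 3 each). Igdcc4, an immunoglobulin-domain surface protein, P2rx6, a subunit of ATP-gated channels, and Cldn2, a pore-forming claudin of tight junctions, had ratios of means of 2.46, 3.59 and 2.57. P2rx6 shares 13.9% of its exon bases with Slc7a4 on the opposite strand, which was at 10.1 ± 0.509 FPKM in bKO and 9.69 ± 0.659 FPKM in flox. The relatives Cldn7 and Cldn3 of Cldn2 both fell. Cldn7 averaged 17.8 ± 0.404 FPKM in bKO and 25.2 ± 1.67 FPKM in flox (limma log2 fold change -0.47, SE 0.055, limma adjusted p = 0.00225), and Cldn3 10.6 ± 1.55 FPKM in bKO and 15.98 ± 2.42 FPKM in flox (limma adjusted p = 0.0276). The Cldn3 call did not hold when scaling used library totals, when no filter was set, or without bKO 1, bKO 2, flox 1 or flox 2. For comparison, 11.4% of all tested genes fell and 8.96% rose. Of 13 tested genes of the epithelial keratin and junction list 4 fell and 0 rose, with a median of -0.04. The other 2 that fell were Cdh1, E-cadherin (log2 fold change -0.38), and Krt80, a keratin (log2 fold change -0.56; limma adjusted p = 0.00493 and 0.0191), and the Krt80 call was lost without bKO 2, bKO 3 or flox 1.

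Of the 4 actin-linked and phosphatase members, Actn2, the alpha-actinin of muscle Z-discs, had 1.81, 2.27 and 2.08 FPKM in bKO and 0.278, 0.336 and 0.374 FPKM in flox. Klhl30, a kelch-family protein, had 1.05, 1.29 and 1.19 FPKM in bKO and 0.141, 0.0939 and 0 FPKM in flox, on 202 reads in bKO and 12 in flox. Ppp1r14d, an inhibitor of protein phosphatase 1, held the fewest reads of any member in bKO, 83 over the group, and had 1.89, 1.75 and 1.59 FPKM in bKO and 0.219, 0.409 and 0.0724 FPKM in flox. Flox held 3, 6 and 1 reads of it. Cap2, an actin-monomer regulator, averaged 1.42 ± 0.106 FPKM in bKO and 0.519 ± 0.0935 FPKM in flox (SD, n = 3 each).

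Both regulators were low in every flox library. Lmo1, a LIM-only transcriptional cofactor, had 3.62, 4.16 and 1.99 FPKM in bKO and 0.7203, 0.561 and 0.875 FPKM in flox. It was the most variable member within bKO, and bKO 3 was its lowest knockout library. Spsb4, a substrate adaptor of a ubiquitin ligase, had 1.81, 1.96 and 2.29 FPKM in bKO and 0.263, 0.272 and 0.193 FPKM in flox. Its relative Spsb2 rose too and averaged 16.7 ± 0.791 FPKM in bKO and 11.5 ± 0.618 FPKM in flox (limma log2 fold change 0.50, SE 0.056, limma adjusted p = 0.00191).

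No role is stated here for 5 members. Ccdc152, a coiled-coil protein gene, had 5.75, 6.83 and 5.97 FPKM in bKO, against 0.457, 0.427 and 0.636 FPKM in flox. It lies antisense to Selenop, a selenium transport protein gene, and 32.3% of its exon bases overlap Selenop exons. Selenop was far more abundant, at 139 ± 12.3 FPKM in bKO and 136 ± 5.53 FPKM in flox (limma log2 fold change 0.03, SE 0.067, limma adjusted p = 0.787). In flox, Ccdc152 held 10, 10 and 14 reads, beside 6119, 6984 and 6100 of Selenop. At most these few flox reads of Ccdc152 can be Selenop reads. The strand setting of the counting is not given, so the value of Ccdc152 stays uncertain. Tmem212 had 5.53, 4.47 and 3.63 FPKM in bKO and 0.607, 0.243 and 0.259 FPKM in flox. The predicted gene Gm2115 had 2.83, 3.04 and 4.35 FPKM in bKO and 0.635, 0.6404 and 0.816 FPKM in flox. BC030499 had 1.88, 1.79 and 2.17 FPKM in bKO and 0.0578, 0.176 and 0.115 FPKM in flox, and Gm12689 averaged 1.41 ± 0.231 FPKM in bKO and 0.224 ± 0.0817 FPKM in flox (SD, n = 3 each). None of these 5 overlapped between the groups, as the rule requires.

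The members lie on 17 chromosomes, with 5 on chromosome 7 and 4 each on chromosomes 2, 3 and 9, and 2 pairs are neighbours within 10 kb. Deposited gene lengths ran from 716 to 15296 bases, with a median of 3325, against 4354 for all tested protein-coding genes. FPKM, on which the rule rests, divides by this length. In the GENCODE annotation 12 members share exon bases with another gene. Ccdc152, Chdh, Izumo1 and P2rx6 are the 4 whose partner averaged at least 1 FPKM. Reads in shared bases may enter the FPKM that chose them. In flox, at most 10, 10 and 14 reads of Ccdc152 and 0, 0 and 8 of Izumo1 can come from their partners. The same bound is 45, 61 and 39 reads for Chdh and 16, 28 and 20 for P2rx6. For each of the 4 the bound is all of its flox reads.

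The genes next to the members gave no common shift at the deposited scaling. The nearest tested protein-coding gene on each side within 100 kb, members left out, gave 57 genes around 37 members. Of these 8 rose and 5 fell, 14.0% higher beside 8.91% of all tested protein-coding genes higher and 13.2% lower in bKO, and the median log2 change was 0.02, against -0.02 for all of those. Espnl, an espin-like protein gene 2710 bases from Klhl30, rose most, to 4.23 ± 0.263 FPKM in bKO, against 1.47 ± 0.286 FPKM in flox (limma log2 fold change 1.08, SE 0.1, limma adjusted p = 0.000972). Pxylp1, a xylose phosphatase gene 50813 bases from Spsb4, was named after its value was seen and averaged 14.4 ± 0.657 FPKM in bKO and 6.73 ± 0.471 FPKM in flox (limma log2 fold change 0.99, SE 0.062, limma adjusted p = 0.000265). With libraries scaled by their total, which moved the median of all tested genes to 0.13 from -0.01, 25 neighbours were called higher and 0 lower. The median of the 57 neighbours was then 0.18, and 3684 of all 15717 tested genes were called higher and 737 lower.

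**Figure D4:**
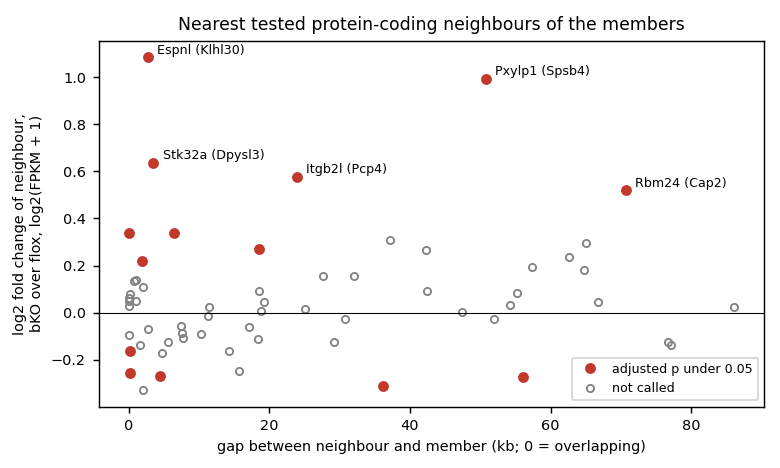
Log2 fold change of the nearest tested protein-coding neighbours (bKO over flox, log2(FPKM + 1)) against their gap to the member in kb, with called genes filled and the member in brackets for called genes past 0.5. Most neighbours lie close to 0, and Espnl and Pxylp1 stand highest.

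Genes that share a symbol stem with a member were compared likewise. Of 118 tested relatives of 23 members, 14 rose and 16 fell, 11.9% higher beside 8.91% of all tested protein-coding genes. With libraries scaled by their total, 28 were called higher and 9 lower, beside 3684 and 737 of all 15717 tested genes. Some families were split. Stmn3, a stathmin, averaged 12.7 ± 1.697 FPKM in bKO and 8.898 ± 0.626 FPKM in flox and was called higher (limma adjusted p = 0.0175), while Stmn1 fell to 6.44 ± 0.908 FPKM in bKO, against 10.5 ± 0.355 FPKM in flox (limma adjusted p = 0.00435). Nsg1 averaged 1.37 ± 0.164 FPKM in bKO and 0.619 ± 0.168 FPKM in flox (limma adjusted p = 0.0175). The calls of Stmn3 and Nsg1 were lost without bKO 1, Stmn3 also without flox 2 and Nsg1 also without bKO 2 or flox 1.

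Promoter windows were found by symbol for 31 of the 41 members among 27025 symbols in the RefSeq table. Both strands were searched for 6 letter strings, and a match describes letters only. TGATGNAAT was found in 2 of 31 member promoters, 6.45%, against 1.08% of all symbols. TGACGTCA, the CRE, was in 1, 3.23% against 2.03%, and TGANTCA, the AP-1 string, was in 3, those of Chdh, Dclk1 and Lmo1, 9.68% against 8.97%. The E-box CACGTG was in 2, 6.45% against 8.09%, and the CCAAT box in 10, 32.3% against 41.1%. TATAAA was in 6, 19.4% against 15.7%. In the 5 windows printed above, the capitalised matches overlapped 0 matches of another string. Median GC content was 54.7% in member promoters and 52.8% over all symbols.

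Beyond the members, 34 rows of other biotypes met the same thresholds, led by 10 processed pseudogenes and 7 miRNA genes. The table holds 54532 rows in all, 22046 of them protein-coding, so this count has another base than those that follow. The mirrored rule, with flox and bKO exchanged, was met by 13 of the 22046 protein-coding genes. The rule itself, before named genes were left out, was met by 48, which is 0.218% of protein-coding rows.

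The remaining lists give the other cell types and pathways, with members left out. Their counts stand beside 8.96% of all 15717 tested genes called higher in bKO and 11.4% called lower. Of the 15 two-cell-stage genes found in the table, 0 passed the filter, and their summed level was 0 in every bKO library and at most 0.0686 FPKM in flox. Of 2 tested germline genes 0 were called by limma and 0 by voom on recovered reads, and 0 had an unadjusted limma p under 0.05. Of 19 tested p53 targets 9 rose and 2 fell, and of 18 immediate early genes 9 rose and 1 fell. Among genes of dedifferentiated or stressed beta cells 4 of 8 rose and 0 fell, and of 12 beta-cell markers 1 rose and 9 fell.

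Among markers of other cells, 1 of 11 mesenchymal markers, Pdgfrb of pericytes, rose (limma adjusted p = 0.0118) and 0 fell, and the list, which also holds the member Thy1, summed to 56.3 to 61.1 FPKM in bKO and 55.3 to 59.3 FPKM in flox. Of 11 endothelial markers 6 rose and 0 fell, and of 11 macrophage markers 0 rose and 5 fell. Of 2 lymphocyte and mast cell markers 1 fell and 0 rose, of 8 duct markers 2 rose and 0 fell, and of 23 acinar markers 2 rose and 0 fell. Of 14 alpha, delta, PP and epsilon cell markers 4 rose and 0 fell. For all these lists, the shares over all tested genes were 8.96% higher and 11.4% lower. The summed lymphocyte and mast cell level was 2.43 to 3.23 FPKM in bKO and 5.69 to 8.53 FPKM in flox, lower in every bKO library. Only 2 of the 13 genes of that list passed the filter, and Cd79a was the 1 that fell. The sum mixes several cell types and does not measure T cells, which also express the member Thy1. The part of any of these cell types in the members was not tested.

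**Figure D5:**
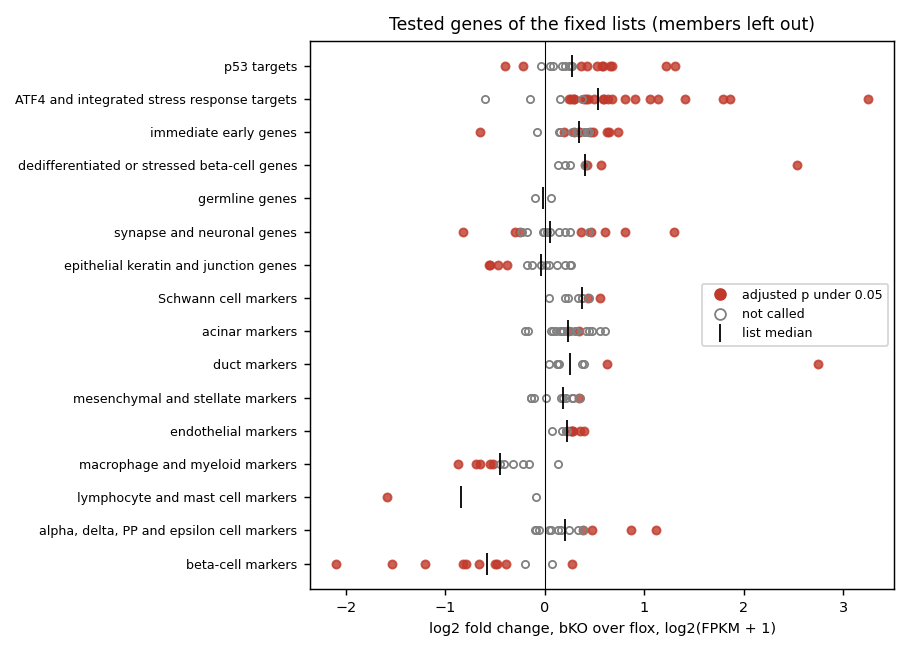
Log2 fold change (bKO over flox, log2(FPKM + 1)) of the tested genes of each list, members left out, with called genes filled and a bar at each list's median. The ATF4 list has the highest median, 0.54, with 20 of 24 genes called higher and 0 lower, and the neuronal list has genes on both sides of 0. Over all tested genes 8.96% were called higher and 11.4% lower.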

How the data were processed

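Messenger RNA of 6 islet libraries was purified on poly-T beads and sequenced in read pairs, per the labels' protocols. GRCm38 and mm10 are named as builds, and HISAT2 2.0.5, featureCounts 1.5.0-p3, DESeq2 1.20.0 and CASAVA as tools, per the submitters' processing notes, which state no role. Neither the strand setting nor the release of the gene models is stated in what was used here. The deposited values are FPKM made by the authors. All values above 0 came to whole reads within 0.01 once multiplied by gene length and 1 factor per library, so reads were recovered from them (100% of values), and 0 columns of other samples were present. Reads without molecular identifiers are not independent molecules, so intervals and floors cover counting error only.

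Groups came from the genotype labels. Libraries of a group differed beyond sampling noise (chi-square per degree of freedom 4.09 to 6.50), so none was counted as a repeat. The members and gene lists were chosen with earlier results of these data known. For genes that are no members, limma 3.58.1 (R 4.3.3) with a mean-variance trend was fitted to log2(FPKM + 1) of the 15717 genes with at least 0.5 FPKM in at least 3 libraries, bKO against flox, with Benjamini-Hochberg adjustment over all of them and a threshold of 0.05. Fold changes on this scale understate the change of low genes. The fit was checked on simulated reads. Values in every library are given for the 20 members highest in bKO, the 10 with the largest ratio and those on a list, 26 in all; some others are given so as well. Called list genes were named by the smallest adjusted p for lists that hold a member or its cell type, relatives and neighbours at a log2 change of at least 1, and further ones after their values were seen. Symbol stems, neighbours, motifs and RefSeq promoters were matched with Python 3.11.15, pandas 2.3.3 and numpy 2.4.6; 41 of 41 members were found in GENCODE vM21, 40 with the same start and end. Alternatives were pseudocounts of 0.1 and 0.5, no filter, scaling by library totals, voom on recovered reads, the replicate number as a block, other thresholds of the rule and leaving out each library. Some genes are not reported here.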

Additional observations from a re-analysis of the deposited data

How the results depend on the processing

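With libraries scaled by their total 56 genes met the rule, the 41 members among them. That scaling raises every bKO value and lowers every flox value. The members therefore had to pass, and their return says nothing of stability. Leaving out 1 library gave 46 to 55 and group means gave 107; both loosen the rule, so that the members had to pass, and say nothing of stability. Asking for at least 4 times the flox maximum left 18. With thresholds of 0.5 and 2 FPKM, 60 and 35 genes passed, and 23 and 12 of them were members. The mirrored rule gave 8 genes at 0.5 FPKM, 1 at 4 times, 48 with group means and 15 to 20 with 1 library left out, against 13.

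Over all genes, 1408 were called higher and 1784 lower. Scaling by library totals gave 3684 and 737, and leaving out 1 library gave 852 to 1179 and 1037 to 1604. The replicate block gave 925 and 1152. Same-numbered libraries did not deviate together (correlations -0.052, -0.014 and -0.073), so the numbers pair nothing beyond the label. For neighbours, totals gave 25 higher and 0 lower, and leaving out 1 library gave 6 to 8 and 4 to 7. For relatives, 8 were higher with no filter, 25 with voom, 8 with the block and 28 with totals, where 9 were lower, and leaving out 1 library gave 6 to 11 and 11 to 16. Genes of the lists gave 65 higher and 25 lower, and 51 to 64 and 17 to 21 with 1 library left out. Of 25 named genes called, 17 kept the call in all 12 alternatives and 8 lost it in at least 1. With the block the calls of Foxd3, Cdh19, Cldn3, Nsg1 and Rasip1 were lost (limma adjusted p = 0.0919, 0.0885, 0.084, 0.0564 and 0.0501). Selenop, not called, ran from -0.041 without bKO 3 to 0.068 without bKO 1. The causes of these differences were not tested. Depth limits the members most in flox, where the median member has 58 reads over the group.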
